A study of Mus musculus with 12 samples.

Results

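Mast cell genes were examined in colon tumours of FvB mice, as a set of 10 symbols chosen by name: the proteases Mcpt1, Mcpt2, Mcpt4, Cma1, Cpa3 and Tpsb2, the receptor genes Kit, Fcer1a and Ms4a2, and Hdc, which makes histamine. All 10 of 10 were rows of the deposited table of 21792 genes, and all 10 were among the 21322 genes tested. Mast cells are tissue-resident immune cells that store proteases and histamine in granules and release them when IgE bound to the high-affinity receptor is crosslinked. In the mouse gut, mucosal mast cells lie in the epithelium and the layer beneath it and are known for Mcpt1 and Mcpt2. Connective tissue mast cells lie deeper and are known for Mcpt4, Cma1, Tpsb2 and Cpa3. Both kinds depend on the receptor Kit.

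Tumours were induced in all mice with azoxymethane (AOM), a colon carcinogen, injected at 10 mg/kg once weekly over 6 weeks, and the mice were followed to week 16 after the first injection. There were 4 genotypes with 3 libraries each: wt, miR-34a IEC deficient (miR-34a deficient below), p53 IEC deficient (p53 deficient) and miR-34a/p53 IEC deficient (double deficient), IEC being intestinal epithelial cells. The labels place the deletions in the epithelium, to which mast cells do not belong. The driver of the deletion, the age and sex of the mice, and whether the 3 libraries of a genotype came from separate or pooled animals are not stated in the labels. The p-values therefore measure only the spread between these libraries, which may be technical. In bulk tumour RNA, fewer mast cells and less RNA per mast cell cannot be told apart.

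Values are normalized scores per gene with no unit, in which depth is not recoverable. Differences are given on the log2(score + 1) scale as 1 group mean minus another, ± SE (3 libraries in each genotype), and a gene was called at a Benjamini-Hochberg adjusted p under 0.05 in limma. Trp53, the p53 gene, was lower in p53 deficient than in wt tumours by limma, with a log2 difference of -3.06 ± 0.24 (adjusted p = 0.000753). It was also lower in double deficient than in wt tumours, with a difference of -2.63 ± 0.24 (adjusted p = 0.000623). Epithelial markers were abundant in every library, with 11 genes summing to between 529932 and 946080. The summed score of 4 Y-linked genes was 0 to 95 in wt, 0 to 173 in miR-34a deficient, 59 to 527 in p53 deficient and 1 to 4 in double deficient libraries. The p53 deficient and double deficient groups thus did not overlap in it. The library names of miR-34a deficient 1 and p53 deficient 1 carry another numeric code than those of the other 10.

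Mcpt1 and Mcpt2 both lie on the plus strand of chromosome 14 (Mcpt1 at chr14:56017971-56020384, Mcpt2 at chr14:56042041-56044642, GRCm38), in a cluster that also holds Mcpt4 (chr14:56059629-56062313, minus strand) and Cma1 (chr14:55941451-55944675, minus strand). Their coding sequences were 80.4% identical, and those of Mcpt1 and Mcpt4 86.4%. The pair is shown because these are the 2 most abundant members and because reads of near copies can be assigned to the wrong gene. The first 90 coding bases differ at 2 positions, in capitals (reference coding sequence, GENCODE M21, from the C57BL/6J genome):
Mcpt1 coding bases 1 to 90: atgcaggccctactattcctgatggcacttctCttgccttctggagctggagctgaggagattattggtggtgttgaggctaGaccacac
Mcpt2 coding bases 1 to 90: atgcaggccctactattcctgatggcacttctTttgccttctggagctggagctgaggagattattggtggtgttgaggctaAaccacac
Further along, coding bases 230 to 319 differ at 34 positions:
Mcpt1 coding bases 230 to 319: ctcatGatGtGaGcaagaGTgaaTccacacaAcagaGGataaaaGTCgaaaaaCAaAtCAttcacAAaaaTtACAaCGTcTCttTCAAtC
Mcpt2 coding bases 230 to 319: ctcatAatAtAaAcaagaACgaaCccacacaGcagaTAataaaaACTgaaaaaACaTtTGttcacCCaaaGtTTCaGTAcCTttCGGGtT
No window of 50 bases of the Mcpt1 or Mcpt2 transcript occurred in a transcript of another gene. The same held for Cpa3, Tpsb2, Kit, Fcer1a, Ms4a2 and Hdc. Of Mcpt4 windows 5.48% were shared, most of them with Cma2, and of Cma1 windows 5.46% were shared, most with Gm48934. By this measure the values of Mcpt4 and Cma1 are less certain than the rest. Only exact matches of 50 bases were counted. Wrong assignment of shorter reads, or of reads placed with mismatches, was not tested, and Mcpt1 and Mcpt2 differ little in their first 90 coding bases. How the authors treated reads that match several genes is not stated in the labels.

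Mast cell transcripts were detected in all 12 tumours, and their level differed far more between tumours of 1 genotype than most genes did. Double deficient 1 held the highest value of 9 of the 10 members, the exception being Hdc. The lowest value of 9 of 10 was in p53 deficient 2, the exception being Kit, whose lowest value was in p53 deficient 3. MiR-34a deficient 3 ranked second for 8 of 10. The 6 protease genes together summed to 46716 in double deficient 1 and to 1508 in p53 deficient 2, a 31.0-fold range. No member was called in any comparison between genotypes.

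**Figure D1:**
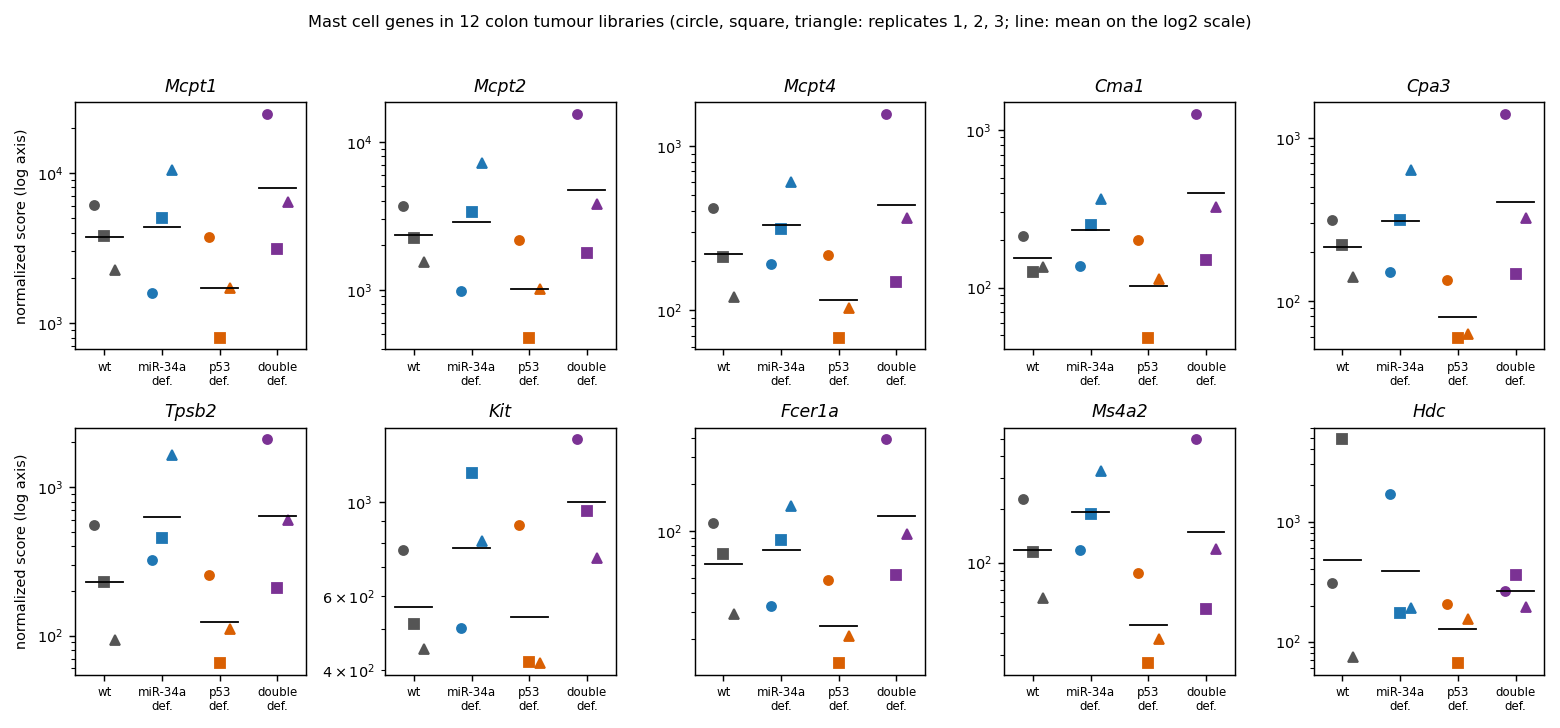
Normalized score of each of the 10 mast cell genes (log axis) in the 12 tumour libraries by genotype, 3 libraries each, with the mean of the log2 values as a line. Double deficient 1 is the highest point in 9 panels and p53 deficient 2 the lowest in 9, while Hdc peaks in wt 2 at 4876.

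The mucosal mast cell proteases were the most abundant members. Mcpt1, a chymase-like protease known for loosening epithelial junctions during worm infection, stood at 6076, 3803 and 2262 in wt 1, 2 and 3. It stood at 1595, 4990 and 10522 in miR-34a deficient, at 3724, 796 and 1718 in p53 deficient, and at 24821, 3116 and 6365 in double deficient 1, 2 and 3. Mcpt1 was thus highest in double deficient 1 and lowest in p53 deficient 2, yet every pair of genotypes overlapped. Its mean log2 value was 11.87 ± 0.71 (SD, n = 3) in wt, 12.10 ± 1.37 in miR-34a deficient, 10.75 ± 1.11 in p53 deficient and 12.95 ± 1.52 in double deficient tumours. Mcpt2, a gene of the same cluster, stood at 3697, 2225 and 1531 in wt and 982, 3353 and 7209 in miR-34a deficient tumours. It stood at 2179, 472 and 1010 in p53 deficient and 15517, 1781 and 3821 in double deficient tumours. The 12 libraries fell in the same order for both genes.

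Among the proteases known from connective tissue mast cells, Mcpt4 is the chymase held to be closest in function to the human enzyme. It stood at 419, 211 and 121 in wt, 191, 311 and 606 in miR-34a deficient, 217, 68 and 104 in p53 deficient, and 1575, 148 and 365 in double deficient tumours. Its genotypes overlapped in every pair. Cma1, an elastase-like chymase also called Mcpt5, stood at 214, 126 and 135 in wt, 137, 251 and 364 in miR-34a deficient, 200, 48 and 113 in p53 deficient, and 1273, 149 and 327 in double deficient tumours. Cma1 had the smallest spread within wt, with a 1.70-fold range, but an 8.54-fold range within double deficient tumours. Cpa3, carboxypeptidase A3, which trims peptides and toxins from their carboxyl end, stood at 314, 221 and 139 in wt and at 151, 315 and 634 in miR-34a deficient tumours. It stood at 134, 59 and 62 in p53 deficient and at 1419, 146 and 325 in double deficient tumours. The highest p53 deficient value of Cpa3, 134, lay below the lowest value of each other genotype (139, 151 and 146), a gap of a few score units. Tpsb2, the tryptase known as mMCP-6, stood at 558, 230 and 93 in wt, 324, 457 and 1655 in miR-34a deficient, 256, 65 and 111 in p53 deficient, and 2111, 210 and 599 in double deficient tumours. All 3 miR-34a deficient values of Tpsb2 lay above all 3 p53 deficient values.

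Of the receptor genes, Fcer1a encodes the IgE-binding alpha chain and Ms4a2 the signal-amplifying beta chain of the high-affinity IgE receptor. Fcer1a stood at 113, 71 and 29 in wt, 33, 88 and 146 in miR-34a deficient, 48, 14 and 21 in p53 deficient, and 393, 52 and 96 in double deficient tumours. The lowest double deficient value, 52, lay just above the highest p53 deficient value, 48. Ms4a2 stood at 228, 114 and 63 in wt, 117, 187 and 330 in miR-34a deficient, 87, 27 and 37 in p53 deficient, and 498, 55 and 119 in double deficient tumours. Ms4a2 was the member whose mean log2 value was highest in miR-34a deficient tumours, at 7.60 ± 0.75 (SD, n = 3) against 7.23 ± 1.60 in double deficient tumours, although its single highest value was in double deficient 1. Kit, the receptor for stem cell factor, stood at 772, 515 and 449 in wt, 502, 1171 and 808 in miR-34a deficient, 881, 417 and 415 in p53 deficient, and 1411, 955 and 738 in double deficient tumours. Kit varied least, with a 3.40-fold range over the 12 libraries against 18.4-fold to 73.9-fold for the other 9 members. Kit is also made by interstitial cells of Cajal and other cells, so its level is not specific to mast cells.

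Hdc, histidine decarboxylase, makes histamine from histidine. It stood at 306, 4876 and 74 in wt, 1700, 174 and 191 in miR-34a deficient, 206, 66 and 154 in p53 deficient, and 263, 361 and 193 in double deficient tumours. Hdc was high in wt 2 and in miR-34a deficient 1, while the other 10 libraries lay between 66 and 361 with a median of 192. Its value in wt 2 was 13.5 times the highest of those 10. Neither library was high in the other members: Mcpt1, for example, was 3803 in wt 2 and 1595 in miR-34a deficient 1. The expressed genes with the most similar pattern over the 12 libraries were Fam115c (r = 0.915) and Car3 (r = 0.890). Car3, a muscle and fat carbonic anhydrase, stood at 3835 in wt 2 and at 49 in miR-34a deficient 1. In the other 10 it was at most 19, with a median of 12.5. Car3 was thus far higher in wt 2 than in any other library, and its r without wt 2 was not computed.

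The genotype means fell in the order double deficient, miR-34a deficient, wt, p53 deficient for 8 of the 10 members. Ms4a2 had miR-34a deficient above double deficient, and Hdc had wt highest. Neighbours in this order overlapped for every member except wt and p53 deficient for Cpa3. Per kilobase of transcript, the median score over the 12 libraries was 3712 for Mcpt1 and 2075 for Mcpt2. The other proteases followed at 259 for Tpsb2, 193 for Mcpt4, 162 for Cma1 and 128 for Cpa3. Kit stood at 145, Ms4a2 at 114, Hdc at 83.4 and Fcer1a at 61.6 on this scale. Whether the deposited scores had already been corrected for length is not stated in the labels, so the order per kilobase assumes that they had not.

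The question put by the design is whether these transcripts differ between the genotypes, and the largest differences lay between double deficient and p53 deficient tumours. All 10 members had a higher mean in double deficient tumours, with a median log2 difference of 2.07 against 0.05 over all genes tested. By limma 0 of 10 were called there, and 0.605% of all genes tested were (129 genes), with adjusted p between 0.183 and 0.739 for the members. Cpa3 had the smallest p, with a log2 difference of 2.35 ± 0.75 (5.11-fold, lower 95% bound 0.70, limma adjusted p = 0.183). Mcpt1 differed by 2.20 ± 0.84 (0.36 to 4.04, limma adjusted p = 0.248), and Kit by 0.90 ± 0.39 (0.05 to 1.75, limma adjusted p = 0.303). At an unadjusted limma p under 0.05 there were 9 of 10 members, all higher, where 8.05% of all genes tested were higher at that level. Hdc was the exception, with an interval from -1.77 to 3.84. Those 9 genes follow the same libraries, as described below, and are not 9 separate observations. Without double deficient 1 the count fell from 9 to 1 and the median difference to 1.23. Without p53 deficient 2 it also fell to 1 (median 1.59), and without p53 deficient 3 to 4. With the code in the library names as a covariate it was 5, and adding the mean log2 of the Y-linked genes as a covariate left 0, at a median of 2.08. The part of the Y-linked difference in these results was not tested further. Groups did not overlap for 2 of 10 members, Cpa3 and Fcer1a, against 10.7% of all genes tested that were higher without overlap.

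Between p53 deficient and wt tumours all 10 members had a lower mean in p53 deficient tumours, by a median of -1.16 against -0.04 over all genes. By limma 0 of 10 were called, against 0.0234% of all genes (adjusted p 0.399 to 0.948). Likewise 0 reached an unadjusted p under 0.05, against 15.3% of all genes. The median was -0.61 without p53 deficient 2, with 9 of 10 lower, and -1.71 without p53 deficient 1. The unadjusted count was at most 2, without double deficient 1. Cpa3 differed by -1.42 ± 0.75 and was the 1 member whose groups did not overlap, where 9.27% of all genes were lower without overlap. Kit differed by -0.08 ± 0.39, with an interval from -0.92 to 0.77. Between p53 deficient and miR-34a deficient tumours all 10 members were again lower in p53 deficient tumours, by a median of -1.54 against -0.10. There 0 of 10 were called by limma, against 3.39% of all genes. At an unadjusted limma p under 0.05 there were 3 of 10, Cpa3, Tpsb2 and Ms4a2, against 14.3% of all genes that were lower at that level. The same 3 genes were those without overlap, against 16.6% of all genes. Ms4a2 had the smallest p of them (-2.10 ± 0.77, limma adjusted p = 0.136). The count of 3 fell to 0 without miR-34a deficient 3, without p53 deficient 2 or without p53 deficient 3, and was 9 without the 2 libraries of the other code, at a median of -2.64. It lay between 1 and 7 under the remaining alternatives.

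Between double deficient and wt tumours 9 of 10 members had a higher mean in double deficient tumours, with a median of 1.00 against 0.02 over all genes. None of the 10 was called by limma (0.802% of all genes were), with adjusted p between 0.342 and 0.887. Likewise 0 reached an unadjusted p under 0.05, against 15.3% of all genes. The median was 0.18 without double deficient 1 and 0.64 without wt 3, with 8 of 10 higher in each. Without double deficient 2 it was 1.70, with 4 members at an unadjusted limma p under 0.05. Kit had the smallest p (0.82 ± 0.39, interval -0.02 to 1.67, limma adjusted p = 0.342), and Hdc was lower, by -0.87 ± 1.28. Between miR-34a deficient and wt tumours 9 of 10 had a higher mean, by a median of 0.51 against 0.03. Again 0 of 10 were called by limma, against 0.0375% of all genes, and 0 reached an unadjusted p under 0.05, against 6.09%. The median was 0.16 without miR-34a deficient 3 and 0.20 without wt 3, with 7 of 10 higher in each. It was 0.77 without wt 1 and 0.97 without miR-34a deficient 1. Tpsb2 had the largest difference there, 1.45 ± 0.91 (interval -0.55 to 3.45). Between double deficient and miR-34a deficient tumours 8 of 10 were higher, with a median of 0.40 against -0.06. There 0 of 10 were called by limma (0.905% of all genes) and 0 reached an unadjusted p under 0.05 (18% of all genes). Without double deficient 1, however, 8 of 10 were lower and the median was -0.32. The median was 0.03 without miR-34a deficient 1, with 6 of 10 higher, 0.87 without miR-34a deficient 3 and 1.16 without double deficient 2. These comparisons share groups and are not independent of each other.

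**Figure D2:**
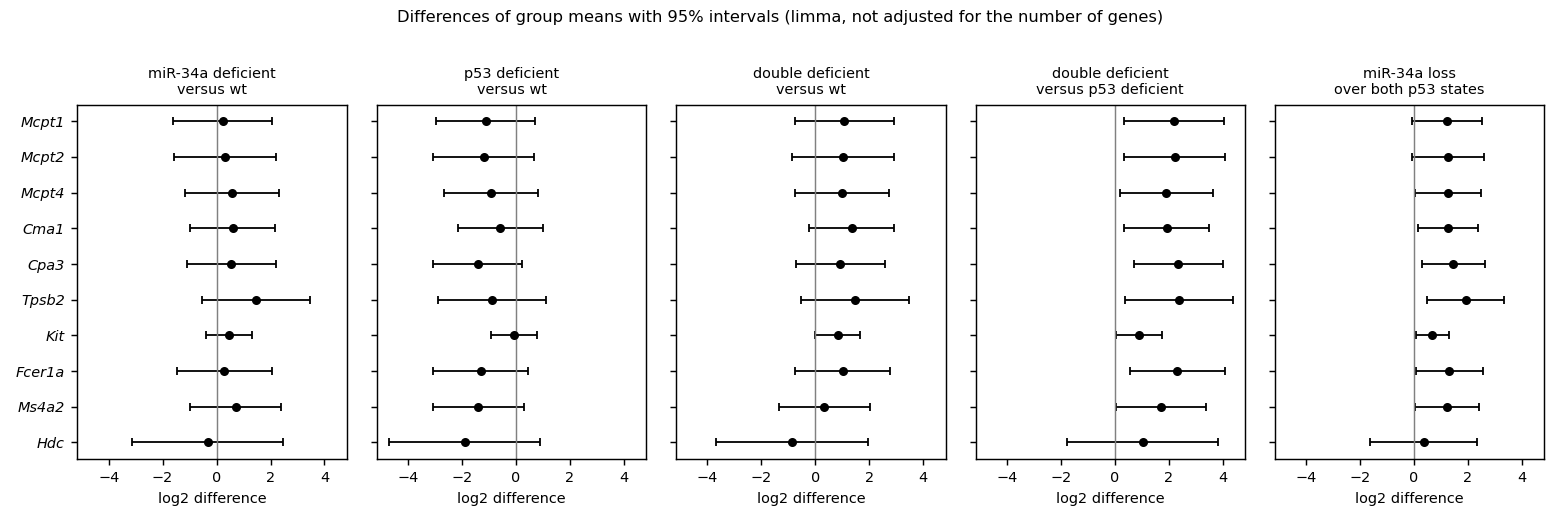
Log2 differences of group means (points) with 95% intervals (bars) for the 10 members in 5 comparisons. Intervals of 9 members lie above 0 in double deficient against p53 deficient tumours, the lowest bound being 0.04 for Ms4a2, and those of all 10 span 0 in each comparison with wt.

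Averaged over both p53 states, miR-34a loss went with a higher mean of all 10 members, by a median log2 difference of 1.26 against 0.04 over all genes. By limma 0 of 10 were called, against 0.342% of all genes tested (adjusted p 0.237 to 0.896). At an unadjusted limma p under 0.05 there were 7 of 10, against 8.85% of all genes that were higher at that level. Tpsb2 had the largest difference, 1.91 ± 0.65 (limma adjusted p = 0.237), followed by Cpa3 at 1.45 ± 0.53 (limma adjusted p = 0.271). Without double deficient 1 the median was 0.82. The count of 7 was 1 without miR-34a deficient 3. It was 2 without each of double deficient 1, wt 2, wt 3, p53 deficient 2 and miR-34a deficient 2 in turn, 3 without p53 deficient 3, and 0 with the Y-linked covariate. It was 4 with the code as a covariate, with no filter, with quantile normalization, with no trend in the prior variance, or with a covariate for the variation that the deposited values lack. Averaged over both miR-34a states, p53 loss gave a median of -0.27 against -0.06. Of the members 8 were lower and 2, Cma1 and Kit, higher, with 0 of 10 called by limma where 5.05% of all genes were. Likewise 0 were at an unadjusted p under 0.05, against 23.8% of all genes. The sign of the p53 loss median turned with 1 library: it was 0.07 without double deficient 2, with 6 of 10 higher, and -0.71 without double deficient 1, with 9 of 10 lower. Without the 2 libraries of the other code it was -0.84, with 10 of 10 lower. It was -0.07, -0.046 and -0.085 without wt 1, miR-34a deficient 3 and p53 deficient 2, and -0.51, -0.60 and -0.52 without wt 3, miR-34a deficient 1 and p53 deficient 1. For the interaction, the test of whether miR-34a loss had a different effect with and without p53, all 10 estimates were above 0 with a median of 1.35. None was called by limma (0.0234% of all genes were), with adjusted p between 0.697 and 0.900. Likewise 0 reached an unadjusted p under 0.05, against 7.89% of all genes. The median was 0.70 without double deficient 1. Without double deficient 2 it was 2.08, with 5 members at an unadjusted limma p under 0.05.

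The spread within genotypes was large for these genes. The residual SD of log2 values was 1.02 to 1.32 for the 6 proteases, Fcer1a and Ms4a2, 0.54 for Kit and 1.85 for Hdc. The median over 14330 genes with a mean score of at least 50 was 0.29. Of those genes, 94.9% to 97.7% had a smaller SD than each of the first 8, 79.2% a smaller SD than Kit and 99.2% a smaller SD than Hdc. The intervals of the differences followed this order, Kit having the narrowest and Hdc the widest in each comparison.

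Over the 12 libraries the 6 member proteases and the IgE receptor genes varied together. Each protease was set against the mean log2 value of the other 5, which gave Pearson r between 0.947 (Tpsb2) and 0.988 (Mcpt4). Against the mean of all 6 proteases, Fcer1a gave r = 0.984 and Spearman rho = 0.972, and Ms4a2 gave r = 0.946 and rho = 0.916. Leaving out p53 deficient 2 and double deficient 1, the ends of the range, r was 0.960 for Fcer1a and 0.899 for Ms4a2. Kit followed less closely, with r = 0.796 and rho = 0.755, and r was 0.619 without those 2 libraries. Hdc did not follow, with r = 0.11 and rho = 0.315, and -0.09 without those 2. Deviations from the genotype means gave r = 0.982 for Fcer1a, 0.982 for Ms4a2, 0.706 for Kit and -0.07 for Hdc, so the joint variation of the first 2 was present within genotypes. These are descriptions over 12 libraries of 4 genotypes, whose values for all genes come from the same libraries and the same normalization.

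**Figure D3:**
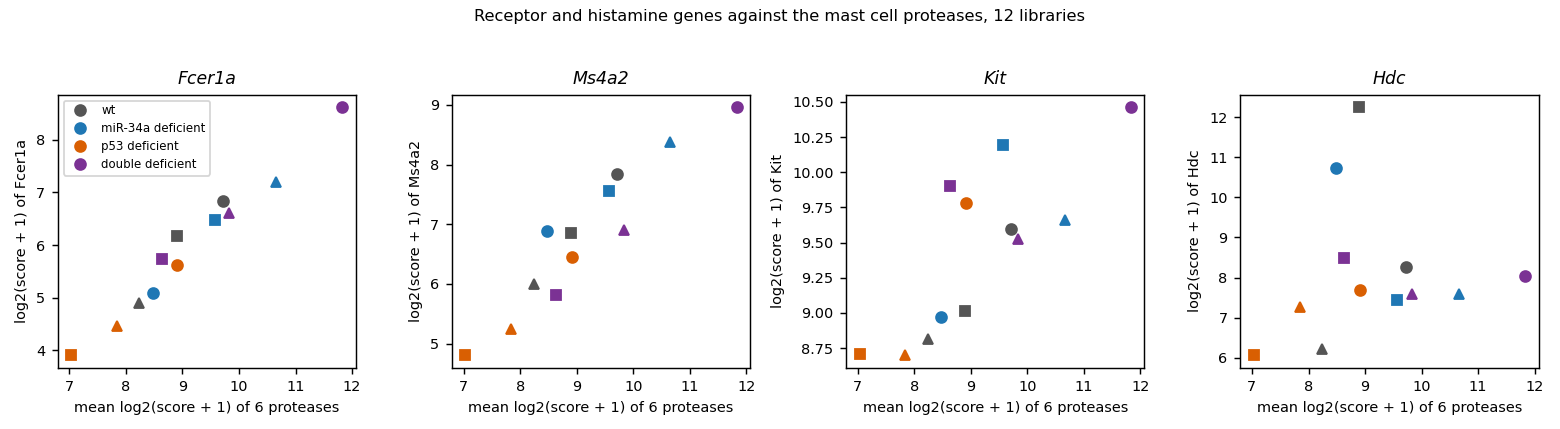
Log2(score + 1) of Fcer1a, Ms4a2, Kit and Hdc against the mean log2(score + 1) of 6 mast cell proteases in the 12 libraries, coloured by genotype (circle, square and triangle for replicates 1, 2 and 3). Points for Fcer1a and Ms4a2 lie near a line, Kit scatters more widely, and Hdc is high in wt 2 and miR-34a deficient 1 at middling protease levels.

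Ratios within a library remove what raises or lowers both genes by the same factor. They are given as descriptions chosen after the values were seen. Mcpt1 was 1.46 to 1.75 times Mcpt2 in all 12 libraries (median 1.65), although each gene varied over 31-fold. The part of reads assigned to the wrong gene of this pair was not tested. Tpsb2 was 0.367 to 0.496 of Tpsab1, the neighbouring tryptase gene known as mMCP-7, in the 9 libraries that were not miR-34a deficient. In miR-34a deficient 1, 2 and 3 that ratio was 1.56, 0.792 and 1.34, above all others. Double deficient tumours, which also lack miR-34a, had 0.367 to 0.456. The coding sequences of Tpsb2 and Tpsab1 were 66.7% identical, and the Tpsb2 transcript shared no 50-base window with another gene. Tpsab1 itself stood at 1125, 527 and 229 in wt, 208, 577 and 1235 in miR-34a deficient, 587, 146 and 281 in p53 deficient, and 5754, 535 and 1315 in double deficient tumours. Its miR-34a deficient values overlapped those of wt and of p53 deficient tumours.

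Ms4a2 was 0.351 to 0.377 of Cpa3 in the 3 double deficient tumours and 0.453 to 0.775 in the other 9. Fcer1a, the partner chain, showed no such separation: it was 0.277 to 0.356 of Cpa3 in double deficient tumours and 0.209 to 0.360 in the other 9. Kit was 6.57 to 7.07 times Cpa3 in p53 deficient tumours, 2.33 to 3.23 times in wt, 1.27 to 3.72 times in miR-34a deficient and 0.994 to 6.54 times in double deficient tumours. The 3 p53 deficient ratios were therefore the 3 highest, with double deficient 2 next at 6.54. Kit, which other cells also make, ranged 3.40-fold over the 12 libraries and Cpa3 24.1-fold. This ratio therefore largely follows the level of Cpa3, whose 3 lowest values were those of the p53 deficient libraries. Mcpt4, Cma1, Cpa3 and Tpsb2 together made 31.2% of the summed Mcpt1 and Mcpt2 score in miR-34a deficient 1, against 12.9% to 18.9% in the other 11 libraries. MiR-34a deficient 2 and 3, at 16.0% and 18.4%, lay within the range of the other genotypes. MiR-34a deficient 1 is 1 of the libraries with the other code.

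**Figure D4:**
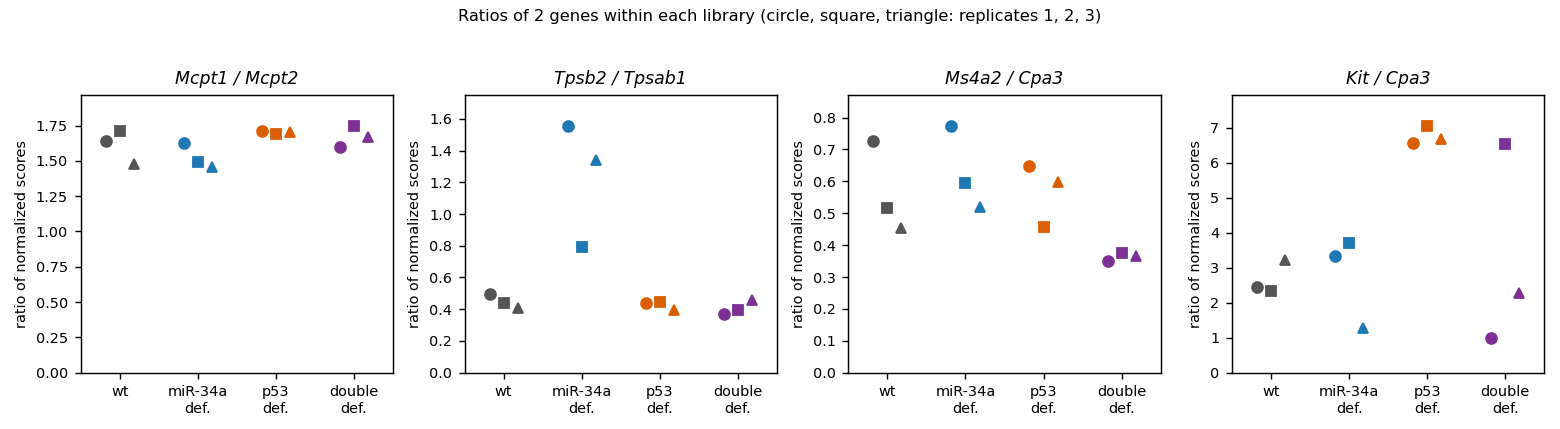
Ratios of normalized scores within each of the 12 libraries by genotype (circle, square and triangle for replicates 1, 2 and 3). Mcpt1/Mcpt2 stays between 1.46 and 1.75, Tpsb2/Tpsab1 is above 0.79 only in miR-34a deficient tumours, Ms4a2/Cpa3 is lowest in double deficient tumours and Kit/Cpa3 is highest in p53 deficient tumours.

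By a rule applied to 14320 other genes with a mean score of at least 50, the pattern most like the mean of the 10 members over the 12 libraries was that of Fcer1g (r = 0.956). Fcer1g encodes the gamma chain shared by the IgE receptor and other Fc receptors. It was followed by Dscr3 (0.940), Gpr97 (0.939), Alox5ap (0.938), Sirpa (0.933), Cyp11a1 (0.931), Alox5 (0.929), Tyrobp (0.929), Tpsab1 (0.927) and Ptpn6 (0.926). Alox5 and Alox5ap act in leukotriene synthesis, and Cyp11a1 makes the first step of steroid synthesis. For Mcpt1 and Mcpt2 alone, the closest was Alox5ap (r = 0.987), then Tpsab1 (0.964), Cyp11a1 (0.948), Fcer1g (0.931) and Gpr97 (0.926). For Mcpt4, Cma1, Cpa3 and Tpsb2 the closest were Cyp11a1 (0.946), Alox5ap (0.941), Tpsab1 (0.937), Fcer1g (0.927) and Dscr3 (0.923). All of these genes had their highest value in double deficient 1.

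Promoter sequences are shown for 5 members that varied together and whose windows hold AGATAA or TGATAA, letters that GATA factors such as GATA2, a regulator of mast cell genes, are known to bind. RefSeq promoter windows (GRCm38.p6, 250 bases before to 50 after the gene start) were matched for 8 of the 10 members, all except Mcpt2 and Tpsb2. One of these words, on either strand (reverse complements TTATCT and TTATCA), was present in 5 of the 8 and in 19.0% of 27025 promoter windows of the same length. The words lay in Mcpt1, Mcpt4, Cpa3, Fcer1a and Ms4a2, and no match was found in the windows of Cma1, Kit and Hdc. The 150 bases before each start, with matches in capitals, read:
Mcpt1, chr14:56017814-56017963, plus strand: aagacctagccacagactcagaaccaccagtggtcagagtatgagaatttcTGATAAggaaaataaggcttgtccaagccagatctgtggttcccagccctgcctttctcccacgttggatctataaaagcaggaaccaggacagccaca
Mcpt4, chr14:56062311-56062460, minus strand: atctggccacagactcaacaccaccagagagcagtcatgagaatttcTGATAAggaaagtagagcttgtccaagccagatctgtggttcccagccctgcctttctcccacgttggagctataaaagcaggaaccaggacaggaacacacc
Cpa3, chr3:20242182-20242331, minus strand: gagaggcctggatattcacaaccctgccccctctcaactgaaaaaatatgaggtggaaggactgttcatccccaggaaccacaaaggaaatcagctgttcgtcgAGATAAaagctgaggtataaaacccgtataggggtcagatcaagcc
Fcer1a, chr1:173227230-173227379, minus strand: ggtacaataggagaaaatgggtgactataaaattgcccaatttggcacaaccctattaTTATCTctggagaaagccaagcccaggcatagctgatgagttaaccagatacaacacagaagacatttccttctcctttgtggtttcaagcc
Ms4a2, chr19:11623720-11623869, minus strand: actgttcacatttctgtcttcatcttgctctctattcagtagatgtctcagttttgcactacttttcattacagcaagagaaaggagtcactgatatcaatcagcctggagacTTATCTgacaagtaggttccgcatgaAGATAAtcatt
The word TGATAA begins 99 bases before the start of Mcpt1 and 103 bases before that of Mcpt4. The Mcpt1 and Mcpt4 windows are 82.7% identical, so their matches are not independent. AGATAA begins 46 bases before the start of Cpa3 and 11 bases before that of Ms4a2, and its reverse complement 92 bases before the start of Fcer1a and 37 and 224 bases before that of Ms4a2, the last lying outside the printed bases. No binding was measured here. Gata2 itself stood at 214, 163 and 52 in wt, 295, 206 and 679 in miR-34a deficient, 179, 33 and 42 in p53 deficient, and 234, 64 and 88 in double deficient tumours. Its highest value was in miR-34a deficient 3 and not in double deficient 1, and its r with the protease mean was 0.714.

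Other genes known from mast cells gave few calls. Of 25 listed, 24 were in the table and 22 were tested. By limma 0 of 22 were called in double deficient against p53 deficient tumours, with 4 higher and 1 lower at an unadjusted p under 0.05 and a median of 0.38. Over all genes tested 8.05% were higher at that level and the median was 0.05. The 4 were Tpsab1 (2.46 ± 0.91, limma adjusted p = 0.234), Alox5 (1.91 ± 0.68, adjusted p = 0.217), Fcer1g (0.81 ± 0.35, adjusted p = 0.308) and Slc18a2, a vesicular amine transporter (0.79 ± 0.35, adjusted p = 0.309). The 2 genes of the list called anywhere were Syk and Tpsg1, and both fell with p53 loss, 2 of 22 where 5.05% of all genes were called. Tpsg1, a membrane-anchored tryptase, stood at 445, 348 and 493 in wt, 407, 997 and 382 in miR-34a deficient, 186, 37 and 111 in p53 deficient, and 86, 92 and 54 in double deficient tumours. All 6 libraries without p53 lay below all 6 with it. Averaged over both miR-34a states, Tpsg1 fell by 2.51 ± 0.38 on the log2 scale with p53 loss (limma adjusted p = 0.0117). Its r with the protease mean was 0.156, and double deficient 1, the library richest in mast cell protease transcripts, held 86. Syk, a kinase of IgE receptor signalling that other cells also make, fell by 1.33 ± 0.18 with p53 loss (limma adjusted p = 0.00768). Both calls held in all 26 alternatives run. Syk was also called lower in double deficient than in wt and in miR-34a deficient tumours, and Tpsg1 in both p53-deficient genotypes than in miR-34a deficient tumours. Mrgprb1 was listed at 0 in all libraries, and Mrgprb2, the mast cell receptor for basic peptides, was at 0 or 1.

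Of 17 genes for mast cell growth and homing, 15 were in the table and tested. By limma 0 were called in any of the 9 comparisons, where 0.0234% to 5.05% of all genes were. In double deficient against p53 deficient tumours 15 of 15 were higher, where 55% of all genes were. Of them 3 were at an unadjusted p under 0.05 (8.05% of all genes), and the median was 0.73 (0.05 over all genes). Kitl, stem cell factor, the ligand of Kit, stood at 12100, 5971 and 4017 in wt, 17237, 8221 and 20709 in miR-34a deficient, 7962, 3511 and 2265 in p53 deficient, and 11180, 7730 and 8091 in double deficient tumours. Each miR-34a deficient value of Kitl lay above each p53 deficient value. Its log2 difference with miR-34a loss was 1.13 ± 0.35 (limma adjusted p = 0.209). Its r with the protease mean was 0.675.

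Fcer1a, Ms4a2 and Cpa3 are also made by basophils, and Kit by interstitial cells of Cajal. Mcpt8, the defining basophil protease, stood at 5, 6 and 8 in wt and 2, 4 and 28 in miR-34a deficient tumours. It stood at 10, 0 and 2 in p53 deficient and 25, 12 and 15 in double deficient tumours. These scores are low, yet every double deficient value lay above every p53 deficient value, as for 10.7% of all genes tested. The part of basophils in the values of Fcer1a, Ms4a2 and Cpa3 was not tested. Cd200r3, a receptor of basophils and mast cells, stood at 15, 11 and 16 in wt, 32, 32 and 90 in miR-34a deficient, 18, 4 and 4 in p53 deficient, and 113, 10 and 21 in double deficient tumours. It was highest in double deficient 1 and second in miR-34a deficient 3, as most members were, with r = 0.879 to the protease mean over the 12 libraries. Of 6 basophil markers listed, 5 were tested and 0 were called in any comparison by limma, where 0.0234% to 5.05% of all genes were. In double deficient against p53 deficient tumours 2 were higher at an unadjusted limma p under 0.05, where 8.05% of all genes were. Il4 and Il3ra of this list are also in the growth and homing list. The summed basophil list was 1683 to 3415 in wt, 2631 to 3505 in miR-34a deficient, 2879 to 4921 in p53 deficient and 3658 to 4325 in double deficient tumours, most of it Itga2, an integrin of many cell types. Of the 6 interstitial cell markers, Kit among them, Etv1 was at 4 to 18 and Hcn4 at 4 to 26. Thbs4 stood at 858, 2385 and 1596 in p53 deficient and at 57, 595 and 186 in double deficient tumours (-2.99 ± 0.87, limma adjusted p = 0.147). Prkcq stood at 263, 41 and 119 against 273, 99 and 175 (0.62 ± 0.67, limma adjusted p = 0.699). Of the 6 markers, Kit and Prkcq were the 2 with a higher mean in double deficient tumours, and the rest were lower. Ano1, a chloride channel, was at 8502 to 20704 and was called lower in double deficient than in p53 deficient tumours (-0.89 ± 0.15, limma adjusted p = 0.0301), where Kit had a difference of 0.90. That call of Ano1 was lost in 8 of 27 alternatives. Ano1 lay far above Kit (415 to 1411) in every library, and which cells made it was not tested.

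Markers of some other cell types moved beside the mast cell genes, and others did not. In double deficient against p53 deficient tumours all 8 endothelial markers had a higher mean, with a median of 0.91 (0.05 over all genes). Of the 8, 5 were at an unadjusted limma p under 0.05, where 8.05% of all genes were higher at that level. None was called, where 0.605% of all genes were. Their summed score was 4858 to 6388 in double deficient, 2138 to 3022 in p53 deficient, 1464 to 3341 in wt and 3287 to 3900 in miR-34a deficient tumours. Neutrophil markers had the largest median of the other immune lists, 1.10, with 9 of 10 above 0 and 3 higher at an unadjusted p under 0.05. Ly6g, the 1 neutrophil marker called, was lower (-2.43 ± 0.30, limma adjusted p = 0.00436). It ranged from 1407 to 13517 and was highest in p53 deficient 2, where the neutrophil markers S100a8 and S100a9 were at 12 and 24. Whether Ly6g came from neutrophils here was not tested. Macrophage and monocyte markers had a median of 0.64 (10 tested, 0 called), T cell markers 0.54 (8 tested, 0 called) and fibroblast markers 0.51 (8 tested, 0 called). Smooth muscle markers had a median of 0.22 (8 tested), B and plasma cell markers 0.0073 (5 tested) and eosinophil markers -0.33 (3 tested), with 0 called. Epithelial markers had a median of -0.31, with 1 of 11 above 0, and enteroendocrine markers -0.80, with 1 of 8 above 0. The mast cell median of 2.07 was larger than each of these, and the part of tissue composition in the mast cell differences was not tested.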

How the data were processed

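RNA of 12 colon tumours was sequenced, with 3 libraries for each of 4 genotypes grouped by the sample titles. The authors deposited score values per gene symbol, that is, normalized values rounded to whole numbers, and not counts. The build was mm10, per the submitters' processing notes. No label names an aligner, a counting tool or the normalization, so depth and counting precision are unknown. Upper quartiles lay between 1905 and 1982.25. Values were taken as log2(value + 1) with no rescaling, genes with a mean under 1 were left out, and limma 3.58.1 (R 4.3.3) was fitted (trend in the prior variance, 1 mean per genotype, 8 residual degrees of freedom), and p-values were adjusted over 21322 genes. Deviations from genotype means spanned 7 dimensions instead of 8 (singular values 32.2 and 0.179), so part of the variation between libraries is missing from the values. The missing direction was fitted as a covariate among the alternatives, with rescalings, pseudocounts, filters, covariates and left-out libraries. The script was tested on simulated data. Members and gene lists were chosen with earlier results of these data known. All members are named, and of the lists the called genes and those with the smallest p. Replicate numbers were not treated as pairs. Transcripts came from GENCODE M21, promoters from RefSeq.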

Additional observations from a re-analysis of the deposited data

How the results depend on the processing

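The number of members called stayed at 0 in all 9 comparisons under all 240 alternative values, leave-one-out included (lowest and highest 0), and the smallest adjusted p over the alternatives was 0.0764 (Cpa3, p53 deficient versus miR-34a deficient, without double deficient 1). Counts at an unadjusted p under 0.05 and medians moved more, as given beside each comparison: in double deficient versus p53 deficient tumours from 0 to 9, and for miR-34a loss from 0 to 9. With a replicate block, by the numbers in the titles, 0 members were called and 9, 3 and 7 were at an unadjusted p under 0.05 in double deficient versus p53 deficient, p53 deficient versus miR-34a deficient and miR-34a loss, as without it. Pairs of libraries with a shared number correlated above 0.1 in 7 of 18 cases, and 3 of 12 libraries were most like one of their own number, so the numbers were not taken as pairs. A fit of only the groups compared was not made for the 2 averaged comparisons and the interaction, which use all 4 groups.

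Of 2400 member values under alternatives 58 changed sign, none from or to a call. Of those 58, 19 were in double deficient versus miR-34a deficient tumours and 16 in p53 loss, and 14 were of Hdc. The cause was not tested. Many of the 2400 could not change sign. Other filters, prior settings, the replicate block and left-out libraries of genotypes outside a comparison leave its estimates as they were. The 58 of 2400 is therefore not a measure of stability. Quantile normalization took Kit in p53 deficient versus wt to 0.037. The Y-linked covariate took that value to 0.11, Hdc to -0.85 (double deficient versus p53 deficient), -0.53 (miR-34a loss) and -0.63 (interaction), and Tpsb2 in double deficient versus miR-34a deficient to -0.078. With the code as a covariate Hdc in the latter comparison was 0.16. Without the 2 libraries of the other code Mcpt2, Cpa3, Tpsb2 and Hdc went there to -0.057, -0.13, -0.43 and 0.53, Cma1 and Kit in p53 loss to -0.33 and -0.20, and Hdc in miR-34a loss to -0.0096.

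With 1 library left out, these ranges crossed 0. In double deficient versus miR-34a deficient tumours they were Mcpt2 -0.14 to 1.42, Mcpt4 -0.50 to 1.20, Cma1 -0.073 to 1.47, Cpa3 -0.51 to 1.12, Tpsb2 -0.82 to 0.84, Fcer1a -0.090 to 1.36 and Ms4a2 -1.25 to 0.33, from without double deficient 1 to without double deficient 2. For p53 loss the same omissions gave Mcpt1 -0.55 to 0.20, Mcpt2 -0.67 to 0.11, Mcpt4 -0.72 to 0.13, Cma1 -0.32 to 0.45 and Fcer1a -0.70 to 0.024, and Kit ranged from -0.040 to 0.29. In miR-34a deficient versus wt Mcpt1 ranged from -0.41 to 0.95, Mcpt2 from -0.36 to 1.08 and Fcer1a from -0.25 to 0.87. Kit in p53 deficient versus wt ranged from -0.44 to 0.15, and Ms4a2 in double deficient versus wt from -0.54 to 1.04. Hdc ranged from -1.67 to 1.34 in miR-34a deficient versus wt, -2.21 to 0.80 in double deficient versus wt, -0.32 to 1.19 for miR-34a loss and -0.31 to 2.70 in the interaction, ends set by wt 2 and wt 3, and from -1.11 to 0.53 in double deficient versus miR-34a deficient tumours.

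Called differences of Tpsg1 from miR-34a deficient tumours were lost in 15 of 27 alternatives for double deficient and 11 of 27 for p53 deficient tumours. Depth is unknown, so the precision of low values such as those of Fcer1a cannot be given.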
